A study of Mus musculus with 7 samples.

Results

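Macrophage identity and polarization genes were compared in tumors that grew from NM1 KO cells and in those that grew from KO+NM1 cells. The genes were Adgre1, Csf1r and Cd68, which mark the lineage, Mrc1, Cd163 and Arg1, linked to scavenging and alternative activation, Nos2, linked to inflammatory activation, and Spp1, Trem2 and Gpnmb, linked to macrophages loaded with lipid. They were taken by gene symbol, with earlier results of these data known, and all 10 were found among the 46603 genes counted. NM1 KO cells are mouse embryonic fibroblasts (MEFs) of an ATCC line from which nuclear myosin 1 (NM1), an isoform of Myo1c, was removed with CRISPR/Cas9. For KO+NM1, a lentivirus returned NM1, with HA and V5 tags, to the KO cells, which were selected with neomycin as single clones, so the deletion is common to both groups. Cells were placed under the skin of female Balb/c nude mice aged 16 weeks, 5 mice per group, which were followed for up to 30 days according to the labels. Nude mice lack a thymus and with it most mature T cells, but keep macrophages. The labels and the methods name the right flank as the site of injection, and another section of the study names the mammary pad. RNA was sequenced from 3 pieces of KO tumor and 4 pieces of KO+NM1 tumor. The labels write of 1 tumor per condition cut into equal pieces and the methods of tumors in the plural, so the SDs and p-values below measure how pieces vary, and would not include variation from mouse to mouse if only 1 tumor of each kind was cut.

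Macrophages arise from blood monocytes or from cells seeded before birth, and depend on signals through the receptor encoded by Csf1r. Within tumors they clear debris, supply growth factors and enzymes, and present antigen to lymphocytes. Their states are often described by a pair of enzymes that compete for arginine, Nos2 after inflammatory signals and Arg1 after interleukin-4, and by scavenger receptors such as Mrc1 and Cd163. These labels are ends of a continuum, and several of the genes are also used by other cells, for example Spp1 by osteoblasts and epithelia and Gpnmb by melanocytes and osteoclasts. Counts per gene do not separate transcripts of the host from those of the injected mouse cells.

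Each piece held between 24088309 and 28326568 reads counted on genes, and CPM are those counts scaled to the library size after TMM normalization. A gene without a read may still have a level of up to 3 counts, or 0.0991 to 0.148 CPM, by counting error alone. Counts for Myo1c reached 289 to 313 CPM in the KO pieces and 382 to 438 CPM in the KO+NM1 pieces, and do not separate NM1 from the other isoforms. KO+NM1 piece 01 stood apart. Its 6 B cell genes summed to 4780 CPM, against 3.58 to 18.5 CPM in KO+NM1 pieces 02 to 04 and 29.2 to 63.0 CPM in KO. Its 8 white adipocyte genes summed to 2540 CPM, and those of pieces 02 to 04 to between 14100 and 20000 CPM. Values without this piece are therefore given beside the results. Mitochondrially encoded genes held 1.81% to 2.14% of all reads counted in KO and 5.11% to 18.5% in KO+NM1.

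Adgre1, Csf1r, Cd68, Mrc1 and Trem2 were higher in the KO pieces, Spp1 and Gpnmb were lower, and Cd163, Arg1 and Nos2 did not pass the test. A gene was called at an adjusted p under 0.05 (edgeR's quasi-likelihood test, Benjamini-Hochberg over 16887 genes) and a change of at least 2-fold. Of the 10 genes, 5 were called higher in KO, where 17.1% of all tested genes were, and 2 were called lower, where 20.3% were. By the adjusted p alone the counts were again 5 and 2, against 25.7% and 24.5% of all tested genes. The median log2 fold change of the 10 genes was 1.15, and that of all tested genes was 0. Pieces of the 2 groups did not overlap for 5 genes that were higher in KO, where 30.5% of all tested genes showed this, or for 1 that was lower, where 26.4% did. With KO+NM1 piece 01 left out, 4 of the 10 were called higher and 3 lower, against 21.7% and 25.1% of the 16617 genes then tested. In bulk tissue, fewer cells of a type and less RNA per cell cannot be told apart.

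**Figure D1:**
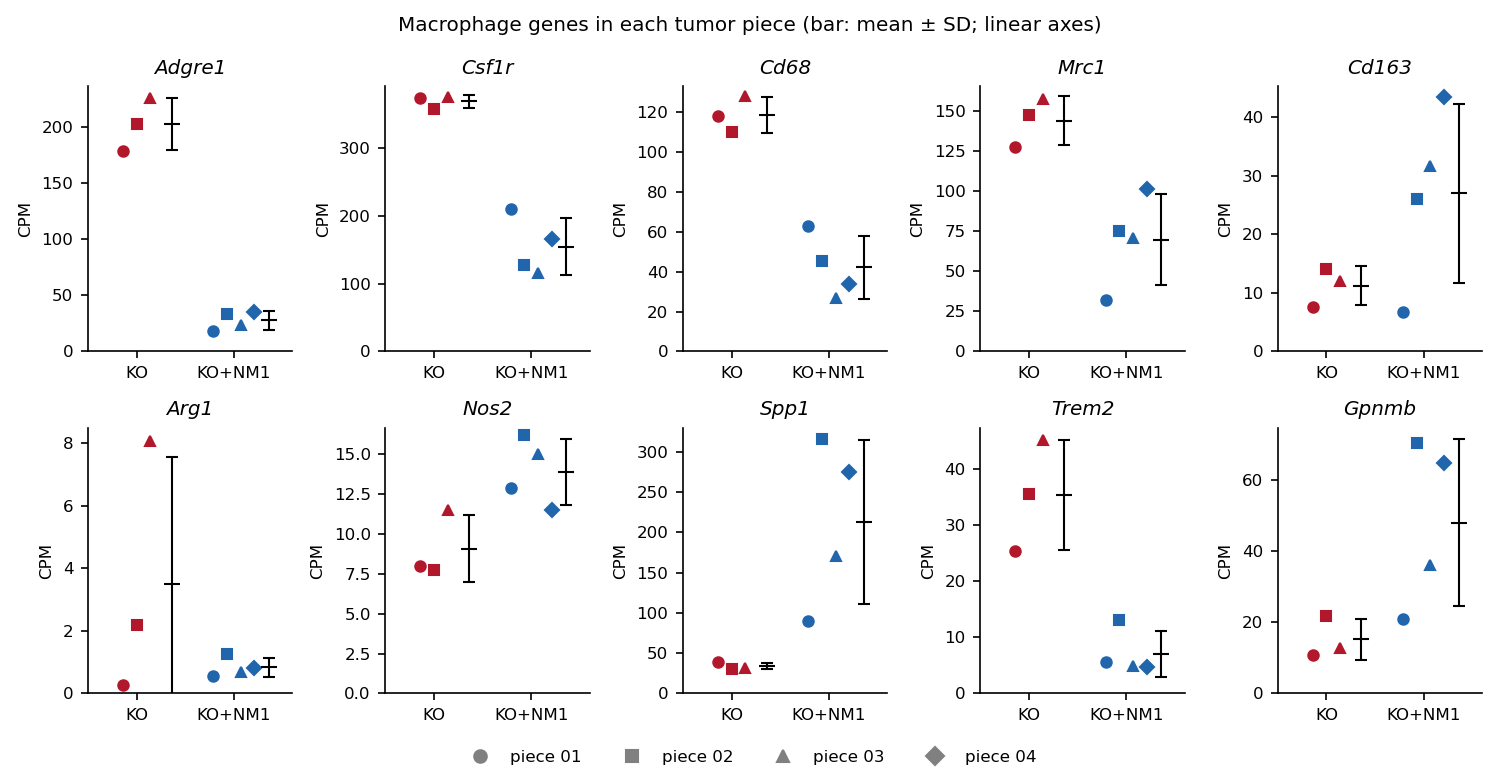
Level of each gene in CPM (linear axes from 0) in the 3 KO pieces (red) and the 4 KO+NM1 pieces (blue), with the mean and SD of each group as a black bar. Adgre1, Csf1r, Cd68, Mrc1 and Trem2 lie higher in every KO piece than in any KO+NM1 piece, and Spp1 lies lower. The SD bar of Arg1 in KO runs below 0 and ends at the axis.

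Of the 3 lineage genes, Adgre1 showed the largest difference. Adgre1 (ENSMUSG00000004730, chromosome 17, 57358691 to 57483527, plus strand, GRCm38) encodes F4/80, the surface receptor by which mouse macrophages are usually recognized. It reached 179, 203 and 226 CPM in KO pieces 01, 02 and 03 and 18.2, 33.7, 23.5 and 35.1 CPM in KO+NM1 pieces 01 to 04. The lowest KO piece was far above the highest KO+NM1 piece, so the groups did not overlap. The means were 203 ± 23.6 CPM (SD, n = 3) and 27.6 ± 8.15 CPM (SD, n = 4), a log2 fold change of 2.88 (SE 0.25, 95% interval 2.28 to 3.47), or 7.36-fold, with an adjusted p of 0.000445 from edgeR. A two-sided exact permutation test over the pieces gave p = 0.0286, the smallest that the 35 splits of 3 against 4 allow.

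Csf1r (ENSMUSG00000024621, chromosome 18, 61100598 to 61132149, plus strand) encodes the receptor for the growth factors Csf1 and Il34. Its level was 374, 359 and 376 CPM in KO pieces 01 to 03 and 210, 128, 116 and 166 CPM in KO+NM1 pieces 01 to 04. The KO pieces lay within 1.05-fold of each other, a range that 95.7% of tested genes matched or exceeded, and every one was above the highest KO+NM1 piece. The log2 fold change was 1.25 (SE 0.22, 95% interval 0.72 to 1.78), or 2.38-fold, with an adjusted p of 0.00369 from edgeR and an exact permutation p of 0.0286. The exons of Csf1r share 873 bases with Hmgxb3 on the other strand, and as the strand setting of the counting is not stated, reads of that stretch cannot be assigned.

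Cd68 (ENSMUSG00000018774, chromosome 11, 69664213 to 69666153, minus strand) encodes a glycoprotein of lysosomes and endosomes that phagocytes hold in large amounts. It stood at 118, 110 and 128 CPM in KO pieces 01 to 03 and at 63.1, 45.3, 26.8 and 33.9 CPM in KO+NM1 pieces 01 to 04. All KO pieces exceeded all KO+NM1 pieces, and KO+NM1 piece 01 was the highest of its group for both Csf1r and Cd68 while it was the lowest for Adgre1. Between the groups Cd68 differed by a log2 fold change of 1.49 (SE 0.29, 95% interval 0.81 to 2.16), or 2.81-fold, with an adjusted p of 0.005 from edgeR and an exact permutation p of 0.0286. Without KO+NM1 piece 01, the log2 fold changes of Adgre1, Csf1r and Cd68 were 2.60, 1.31 and 1.62, and all 3 passed the test. When edgeR's glmTreat tested against a change of 2-fold instead of 0, Adgre1 passed, while Csf1r (adjusted p = 0.165) and Cd68 (adjusted p = 0.0799) did not.

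The 3 genes linked to alternative activation did not move together. Mrc1 (ENSMUSG00000026712, chromosome 2, 14229392 to 14332057, plus strand) encodes the mannose receptor CD206, which takes up glycoproteins. It was counted at 127, 147 and 157 CPM in KO pieces 01 to 03 and at 32.2, 75.0, 70.4 and 101 CPM in KO+NM1 pieces 01 to 04. The groups did not overlap, and the lowest value by a wide margin was that of KO+NM1 piece 01. The log2 fold change was 1.05 (SE 0.35, 95% interval 0.23 to 1.87), or 2.07-fold, with an adjusted p of 0.0398 from edgeR and an exact permutation p of 0.0571. The call of Mrc1 rested on most single pieces. Its adjusted p rose to 0.103, 0.131 and 0.151 without KO pieces 01, 02 and 03 and to 0.0836 and 0.0879 without KO+NM1 pieces 02 and 03. Without KO+NM1 piece 01 the adjusted p was 0.00635, but the log2 fold change of 0.68 was under 2-fold.

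Cd163 (ENSMUSG00000008845, chromosome 6, 124304656 to 124330527, plus strand) encodes the scavenger receptor for hemoglobin bound to haptoglobin. Its values were 7.57, 14.1 and 12 CPM in KO pieces 01 to 03 and 6.78, 26.1, 31.6 and 43.5 CPM in KO+NM1 pieces 01 to 04. KO+NM1 piece 01 lay below every KO piece, and the other KO+NM1 pieces lay above all of them. With all pieces the log2 fold change was -1.26 (SE 0.56, 95% interval -2.59 to 0.07), with an adjusted p of 0.111 from edgeR, and the gene was not called. Without KO+NM1 piece 01 Cd163 was called lower in KO, with a log2 fold change of -1.71 and an adjusted p of 0.00138 from edgeR. Mrc1 and Cd163, both scavenger receptors, thus had fitted changes of opposite sign.

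Arg1 (ENSMUSG00000019987, chromosome 10, 24915221 to 24927484, minus strand) encodes arginase 1, which turns arginine into ornithine and urea. It was low in most pieces, with 8, 63 and 244 counts (0.267, 2.19 and 8.06 CPM) in KO pieces 01 to 03 and 15, 31, 14 and 20 counts (0.547, 1.26, 0.692 and 0.822 CPM) in KO+NM1 pieces 01 to 04. KO piece 01 was the lowest of all 7 and KO piece 03 the highest, so the KO pieces enclosed the KO+NM1 pieces. The KO pieces spread over 30.2-fold, a range matched by 2.97% of tested genes. The fitted log2 fold change was 2.07 (SE 0.94, 95% interval -0.14 to 4.28), with an adjusted p of 0.106 from edgeR. It was 0.45 (adjusted p = 0.696) without KO piece 03 and 2.51 (adjusted p = 0.0238) without KO piece 01. A difference in Arg1 was not detectable above this spread.

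Nos2 (ENSMUSG00000020826, chromosome 11, 78920787 to 78960254, plus strand) encodes inducible nitric oxide synthase. It was counted at 7.97, 7.75 and 11.5 CPM in KO pieces 01 to 03 and at 12.9, 16.2, 15.0 and 11.5 CPM in KO+NM1 pieces 01 to 04. KO piece 03 reached the level of the lowest KO+NM1 piece, and the other KO pieces lay below all KO+NM1 pieces. The log2 fold change was -0.61 (SE 0.23, 95% interval -1.16 to -0.07), with an adjusted p of 0.0655 from edgeR. The adjusted p fell to 0.0172 without KO+NM1 piece 01 (log2 fold change -0.78) and to 0.036 without KO piece 03 (-0.94), and in none of the 17 alternative settings did the change reach 2-fold.

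**Figure D2:**
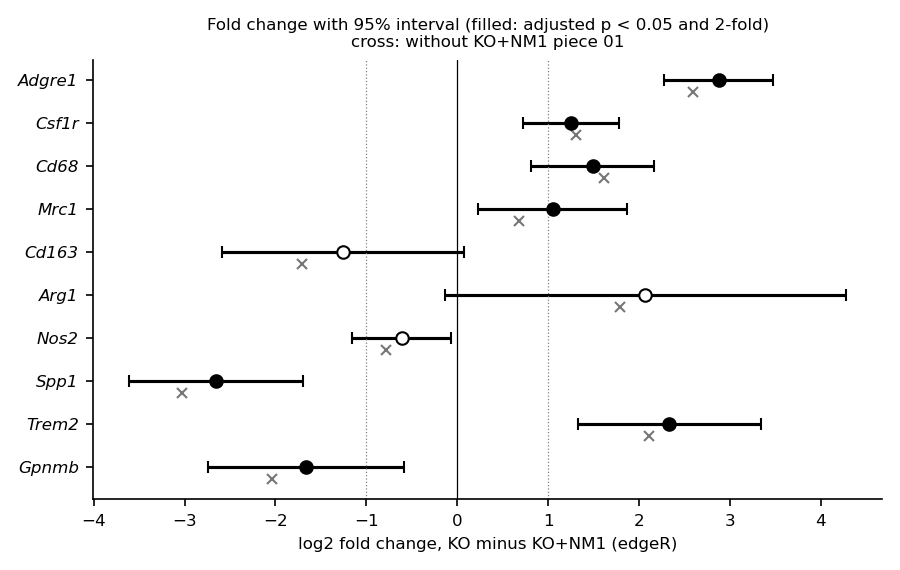
Fitted log2 fold change of each gene, KO minus KO+NM1, with its 95% interval, filled where the gene passed both thresholds. Gray crosses give the value without KO+NM1 piece 01, which turns the open circle of Cd163 (-1.26) into a called -1.71 and takes Mrc1 from 1.05 to 0.68.

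Spp1, Trem2 and Gpnmb are often listed together as markers of macrophages laden with lipid, and here they parted. Spp1 and Gpnmb were lower in KO and Trem2 was higher. The 250 bases before their starts in RefSeq (GRCm38.p6) are shown because these 3 genes of 1 named state moved in opposite directions. They are written 5′ to 3′ along the gene. Capitals mark GAGGAAGT, the letters of a site for the myeloid factor PU.1, which were searched on both strands.
Spp1, chr5:104434861-104435110, plus strand: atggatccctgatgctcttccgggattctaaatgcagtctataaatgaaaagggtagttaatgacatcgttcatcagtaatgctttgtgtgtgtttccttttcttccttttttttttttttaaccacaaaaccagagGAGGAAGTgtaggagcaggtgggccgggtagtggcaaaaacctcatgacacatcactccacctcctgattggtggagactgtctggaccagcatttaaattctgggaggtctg
Trem2, chr17:48346151-48346400, plus strand: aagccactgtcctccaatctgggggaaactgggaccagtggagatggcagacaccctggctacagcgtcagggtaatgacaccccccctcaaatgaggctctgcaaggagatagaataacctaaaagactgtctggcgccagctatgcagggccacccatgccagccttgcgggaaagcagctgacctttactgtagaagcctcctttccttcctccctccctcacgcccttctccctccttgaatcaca
Gpnmb, chr6:49036268-49036517, plus strand: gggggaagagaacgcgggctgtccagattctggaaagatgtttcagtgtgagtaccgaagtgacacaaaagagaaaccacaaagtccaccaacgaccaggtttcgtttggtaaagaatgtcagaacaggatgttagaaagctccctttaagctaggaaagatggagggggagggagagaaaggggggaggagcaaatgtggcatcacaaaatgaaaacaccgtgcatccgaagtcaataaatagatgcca
The table of RefSeq starts used here was matched for 6 of the 10 genes (Mrc1, Cd163, Cd68, Spp1, Trem2 and Gpnmb), with a pair of starts for Spp1, which made 7 stretches. The letters GAGGAAGT stood in 1 of the 7, the Spp1 stretch above, and in 802 of 32851 stretches of the same length across the genome, or 2.44%. CACGTG, an E-box that does not overlap with them in its letters and reads the same on both strands, stood in 0 of the 7 and in 6.02% of all. A match of letters is a description of these windows only.

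Spp1 (ENSMUSG00000029304, chromosome 5, 104435118 to 104441050, plus strand) encodes osteopontin, a secreted phosphoprotein that binds integrins and CD44. Its level was 38.7, 30.9 and 32.1 CPM in KO pieces 01 to 03 and 89.5, 315, 171 and 275 CPM in KO+NM1 pieces 01 to 04. Even KO+NM1 piece 01, the lowest of its group, was above every KO piece. The means were 33.9 ± 4.2 CPM (SD, n = 3) and 213 ± 102 CPM (SD, n = 4), and the log2 fold change was -2.65 (SE 0.41, 95% interval -3.61 to -1.7), that is 6.28-fold higher in KO+NM1, with an adjusted p of 0.00299 from edgeR and an exact permutation p of 0.0571. Without KO+NM1 piece 01 it was -3.03. A stretch of 309 exonic bases is shared with the gene Gm42793 on the same strand.

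Trem2 (ENSMUSG00000023992, chromosome 17, 48346401 to 48354147, plus strand) encodes a receptor for lipids and lipoproteins that signals through the adaptor Tyrobp. It reached 25.4, 35.5 and 45.1 CPM in KO pieces 01 to 03 and 5.51, 13.1, 4.84 and 4.65 CPM in KO+NM1 pieces 01 to 04. The groups did not overlap, and KO+NM1 piece 02 stood well above the rest of its group. The log2 fold change was 2.33 (SE 0.43, 95% interval 1.33 to 3.34), or 5.03-fold, with an adjusted p of 0.00431 from edgeR and an exact permutation p of 0.0286. Without KO+NM1 piece 01 it was 2.11 and without KO+NM1 piece 02 it was 2.80.

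Gpnmb (ENSMUSG00000029816, chromosome 6, 49036546 to 49070929, plus strand) encodes a transmembrane glycoprotein of lysosomes and melanosomes. It stood at 10.9, 21.7 and 12.9 CPM in KO pieces 01 to 03 and at 20.9, 70.3, 36 and 64.8 CPM in KO+NM1 pieces 01 to 04. KO piece 02 slightly exceeded KO+NM1 piece 01, and otherwise the groups were apart. The log2 fold change was -1.66 (SE 0.46, 95% interval -2.74 to -0.59), that is 3.16-fold higher in KO+NM1, with an adjusted p of 0.0242 from edgeR and an exact permutation p of 0.0857. The adjusted p was 0.00136 without KO+NM1 piece 01 (log2 fold change -2.04), but 0.0745 and 0.072 without KO pieces 01 and 03 and 0.0578 and 0.0571 without KO+NM1 pieces 02 and 04. Melanocyte genes, which could accompany Gpnmb from other cells, summed to 2.34 to 2.84 CPM in the KO+NM1 pieces and to at most 21 CPM in KO, in piece 02.

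The genes were next set against each lineage gene within the same piece, as a log2 ratio of counts (with 0.5 added), which does not depend on the scaling of the libraries. These ratios are values without a test. Relative to Adgre1, Spp1 stood at -2.58 ± 0.33 (SD, n = 3) in KO and at 2.84 ± 0.39 (SD, n = 4) in KO+NM1, which differ by -5.42. Gpnmb differed by -4.49, Cd163 by -3.95, Nos2 by -3.55 and Mrc1 by -1.76, with no overlap between the groups. Mrc1 was thus lower in KO relative to Adgre1, although its CPM were higher there. The other lineage genes also differed against Adgre1, Csf1r by -1.63 and Cd68 by -1.36, again without overlap. Adgre1 thus differed between the groups by more than Csf1r and Cd68 did, whereas the ratio of Trem2 to Adgre1 differed by -0.48 and overlapped.

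Measured against Csf1r or Cd68 instead, the ratios of Spp1 (-3.79 and -4.06), Gpnmb (-2.86 and -3.13) and Nos2 (-1.92 and -2.19) still separated the groups. The ratio of Csf1r to Cd68 itself differed by -0.27 and overlapped. Those of Mrc1 (-0.14 and -0.4) and Cd163 (-2.32 and -2.59) overlapped as well, for each gene through KO+NM1 piece 01. Against Csf1r, Mrc1 stood at -2.7 in that piece, -1.56 to -1.26 in KO and -0.77 to -0.72 in the other KO+NM1 pieces. Against Cd68 it stood at -0.97 in that piece, 0.11 to 0.42 in KO and 0.73 to 1.57 in the others. Trem2 had a ratio that was higher in KO against Csf1r (1.14) and Cd68 (0.88), the opposite sign to that against Adgre1, with overlap in all 3.

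**Figure D3:**
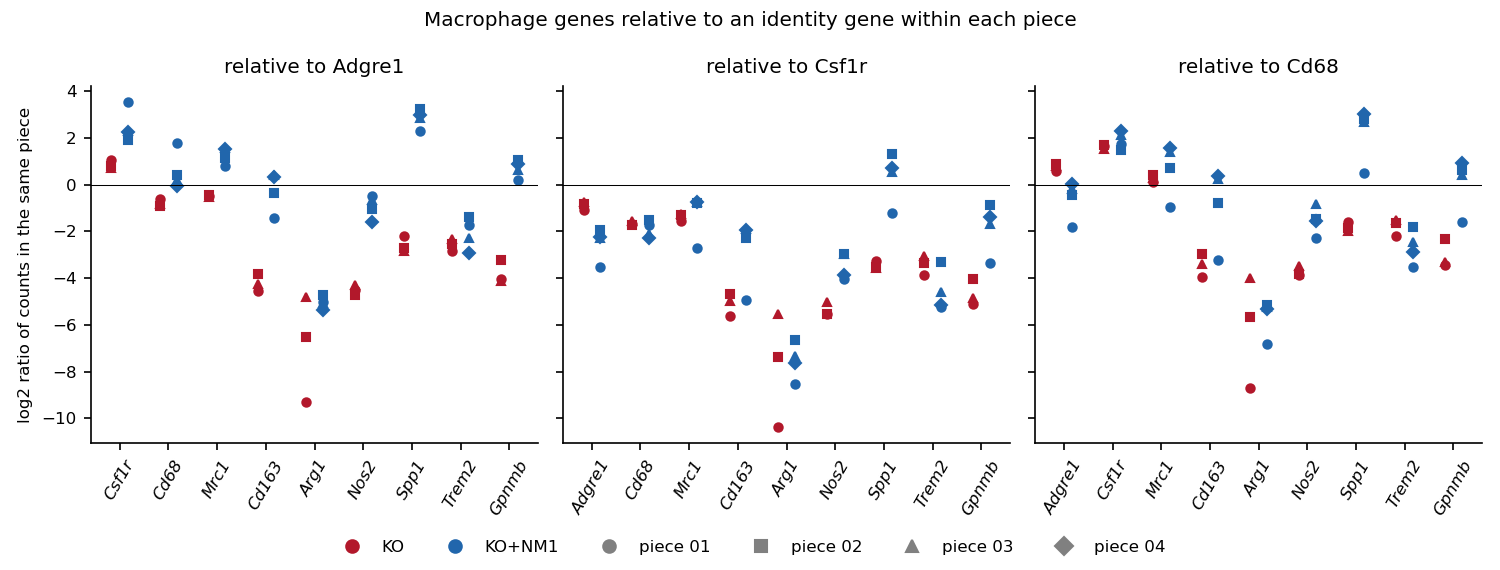
Log2 ratio of the counts of each gene to those of Adgre1, Csf1r or Cd68 in the same piece, for KO (red) and KO+NM1 (blue) pieces. Spp1, Gpnmb and Nos2 separate the groups in all 3 panels, with KO lower. The ratio of Csf1r to Cd68 is similar in both groups (means 1.64 in KO and 1.91 in KO+NM1).

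Levels of different genes were compared per length, as TPM (transcript abundance scaled to length and depth) over all annotated exons of a gene, within a group. In the KO pieces Cd68 was highest with 327 ± 21.5 TPM (SD, n = 3), ahead of Csf1r (222 ± 6.12 TPM) and Adgre1 (217 ± 21.3 TPM), whose pieces overlapped. Mrc1 (78.2 ± 7.03 TPM) and Spp1 (71.3 ± 9.92 TPM) followed and overlapped each other, then Trem2 (24.7 ± 6.47 TPM). The levels of Gpnmb, Cd163, Nos2 and Arg1, between 5.38 and 8.06 TPM on average, overlapped from one to the next.

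In the KO+NM1 pieces the order was led by Spp1 with 330 ± 170 TPM (SD, n = 4), and its lowest piece was above the highest of Cd68 (90.8 ± 48.3 TPM). Csf1r (72.3 ± 33.2 TPM), Mrc1 (27.9 ± 13.3 TPM), Adgre1 (22.1 ± 8.01 TPM), Gpnmb (18.9 ± 10.1 TPM), Cd163 (12.4 ± 8.0 TPM) and Nos2 (8.03 ± 1.25 TPM) followed, each overlapping the next. Trem2 (3.63 ± 1.99 TPM) and Arg1 (0.953 ± 0.349 TPM) were lowest, each apart from its neighbor. The annotated exons of Trem2 span 4946 bases but its principal transcript 1088, and per length of the principal transcript Trem2 moved up to rank 4 in KO and rank 7 in KO+NM1.

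Genes of the pathways around these 10 were counted next, in lists that hold 92 genes, of which 86 were tested, 21 were called higher in KO and 13 lower, beside 17.1% and 20.3% of all tested genes. When KO+NM1 piece 01 was left out, 42 were called higher and 16 lower, beside 21.7% and 25.1%. List genes outside the rule for naming, such as those that complete a count, are named after their values were seen. Among growth factors, receptors and factors of the lineage, 9 of 10 genes were tested, 1 was called higher (Csf1) and 1 lower (Cebpa). Spi1 (1.99) and Irf8 (2.82), factors of the myeloid lineage, were also called higher without KO+NM1 piece 01. Csf1, the main ligand of Csf1r, reached 192, 172 and 186 CPM in KO pieces 01 to 03 and 108, 72.1, 58.5 and 88.8 CPM in KO+NM1 pieces 01 to 04. All KO pieces exceeded all KO+NM1 pieces, with a log2 fold change of 1.16 (SE 0.22) and an adjusted p of 0.00431 from edgeR. Il34, the other ligand, stood at 41.5 ± 12.9 CPM (SD, n = 3) and 21 ± 6.55 CPM (SD, n = 4), a log2 fold change of 0.98 (SE 0.31) with an adjusted p of 0.0343 from edgeR, just under 2-fold. Cebpa, a factor of both myeloid cells and fat cells, had a mean of 61.7 CPM in KO and 970 CPM in KO+NM1, beside the adipocyte sums given below, and their part in this was not tested.

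Of 14 general genes of myeloid cells, 8 were called higher in KO and 0 lower, with a median log2 fold change of 1.78. The higher calls came to 5 without any 1 of the other 6 pieces and to 13, with a median of 2.64, without KO+NM1 piece 01. The 14 genes summed to 3400 to 3790 CPM in KO and to 443 to 4430 CPM in KO+NM1, where piece 01 was the highest of all 7 while it was the lowest for Adgre1. Fcgr1, the high-affinity receptor for IgG, stood at 70.6, 70.0 and 87.3 CPM in KO pieces 01 to 03 and at 5.47, 3.86, 3.41 and 4.56 CPM in KO+NM1 pieces 01 to 04, a log2 fold change of 4.13 (SE 0.2, adjusted p = 0.000187 from edgeR). Cx3cr1, the receptor for fractalkine, changed by 3.63 on the log2 scale (SE 0.34, adjusted p = 0.000542 from edgeR). Both were separated by more than Adgre1. Tyrobp, the adaptor of Trem2, was counted at 115, 110 and 119 CPM in the KO pieces and at 87.1, 31.7, 21.3 and 28.4 CPM in KO+NM1 pieces 01 to 04. Its log2 fold change of 1.45 (SE 0.48, adjusted p = 0.0385 from edgeR) became 1.96 (adjusted p = 3.42e-05) without KO+NM1 piece 01, the highest of its group, and its call was lost without any other single piece (adjusted p 0.0727 to 0.114).

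Of 9 tested genes of tissue-resident macrophages, 1 was called higher (Msr1) and 1 lower (Cbr2), and without KO+NM1 piece 01 there were 3 higher (Marco and Siglec1 joined) and 1 lower. Msr1, a scavenger receptor for modified lipoproteins, had a log2 fold change of 2.95 (SE 0.47, adjusted p = 0.00267 from edgeR), and Cbr2 of -2.12 (SE 0.39, adjusted p = 0.00532). Among 12 genes of alternative activation 4 were called lower in KO (Ccl24, Cd209d, Retnla and Mgl2) and 1 higher, and the median was -0.7. The counts were 6 lower and 2 higher without KO+NM1 piece 01, with a median of -0.95. Ccl24, a chemokine for eosinophils, changed by -5.14 (SE 0.89, adjusted p = 0.00601 from edgeR) and Cd209d, a lectin, by -3.51 (SE 0.34, adjusted p = 0.000786). Il10, the gene called higher, had 28 to 43 counts in the KO pieces and 0 to 3 in the KO+NM1 pieces. By fitted log2 fold change, the 4 lower genes had the sign of Cd163, which was not called with all pieces, and not that of Mrc1. Relative to Adgre1, Cd163 and Mrc1 were both lower in KO.

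Of the 14 genes of inflammatory activation, 11 were tested, 3 were called higher, among them Fpr2 and Ptgs2, and 0 lower, with a median of 0.79. Leaving out KO+NM1 piece 01 brought all 11 past the test, with a median of 2.7, and leaving out any other piece left 2. Nos2, the member linked to this state, was on the other side (-0.61 and -0.78). Ptgs2, the inducible cyclooxygenase, had a log2 fold change of 2.81 (SE 0.53, adjusted p = 0.00495 from edgeR). Fpr2, a receptor for formyl peptides, had 2.91 (SE 0.99, adjusted p = 0.0467), and its call held without KO+NM1 piece 01 (4.07, adjusted p = 0.00194) and was lost without any other single piece (adjusted p 0.0627 to 0.128).

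Among 14 genes of lipid-laden macrophages, 2 were called higher (Cd63 and Lgals3) and 4 lower (Fabp4, Cd36, Lpl and Plin2), with a median of -0.5. Leaving out KO+NM1 piece 01 gave 3 higher and 5 lower, with a median of -0.77, and leaving out any other piece gave 1 to 2 higher and 4 lower. Cd63, a tetraspanin of late endosomes, changed by 1.43 (SE 0.2, adjusted p = 0.0016 from edgeR). Lgals3, galectin-3, changed by 1.07 (SE 0.26, adjusted p = 0.0134), and its adjusted p was 0.0599, 0.0567 and 0.0514 without KO pieces 01, 02 and 03. Fabp4, a carrier of fatty acids, changed by -7.82 (SE 0.71, adjusted p = 0.00126) and Cd36, a fatty acid receptor, by -5.55 (SE 0.6, adjusted p = 0.00146). All 4 lower genes are also abundant in fat cells. The 8 white adipocyte genes, all called lower in KO, summed to 94.1 to 229 CPM in the KO pieces and to 2540 to 20000 CPM in the KO+NM1 pieces, and their part in the 4 genes was not tested.

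The genes that handle arginine and the receptors of osteopontin extend the accounts of Arg1, Nos2 and Spp1. Of 9 tested arginine genes, 2 were called higher (Slc7a1 and Odc1) and 3 lower (Arg2, Nos3 and Slc7a2), and without KO+NM1 piece 01 there were 3 and 3. Arg2, the mitochondrial arginase, stood at 0.267, 0.417 and 0.264 CPM in KO pieces 01 to 03 and at 2.92, 7.2, 7.11 and 7.56 CPM in KO+NM1 pieces 01 to 04, a log2 fold change of -4.28 (SE 0.42, adjusted p = 0.000829 from edgeR). Slc7a1, an importer of arginine, changed by 1.8 (SE 0.41, adjusted p = 0.0103) and Odc1, which uses ornithine to make polyamines, by 1.14 (SE 0.19, adjusted p = 0.00297). Nos3, the endothelial enzyme, changed by -3.13 (SE 0.42, adjusted p = 0.002), while the 5 endothelial genes summed to 177 to 197 CPM in KO and 941 to 1210 CPM in KO+NM1, and their part was not tested.

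Of the 8 receptor genes of osteopontin, 3 were called higher in KO (Cd44, Itgav and Itga5) and 0 lower, opposite in sign to Spp1, and without KO+NM1 piece 01 there were 4 higher and 0 lower. Cd44 reached 388, 245 and 262 CPM in KO pieces 01 to 03 and 119, 49.8, 37.6 and 70.0 CPM in KO+NM1 pieces 01 to 04, without overlap, and changed by 2.11 (SE 0.4, adjusted p = 0.00501 from edgeR). Itgav changed by 2.07 (SE 0.23, adjusted p = 0.000805). Itgb3, its partner in the osteopontin receptor, was not called. It stood at 16.6, 6.19 and 10.2 CPM in KO and at 94.5, 16.2, 17.8 and 19.6 CPM in KO+NM1, with a log2 fold change of -1.75 (SE 0.73, adjusted p = 0.0959) that was -0.83 without KO+NM1 piece 01.

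**Figure D4:**
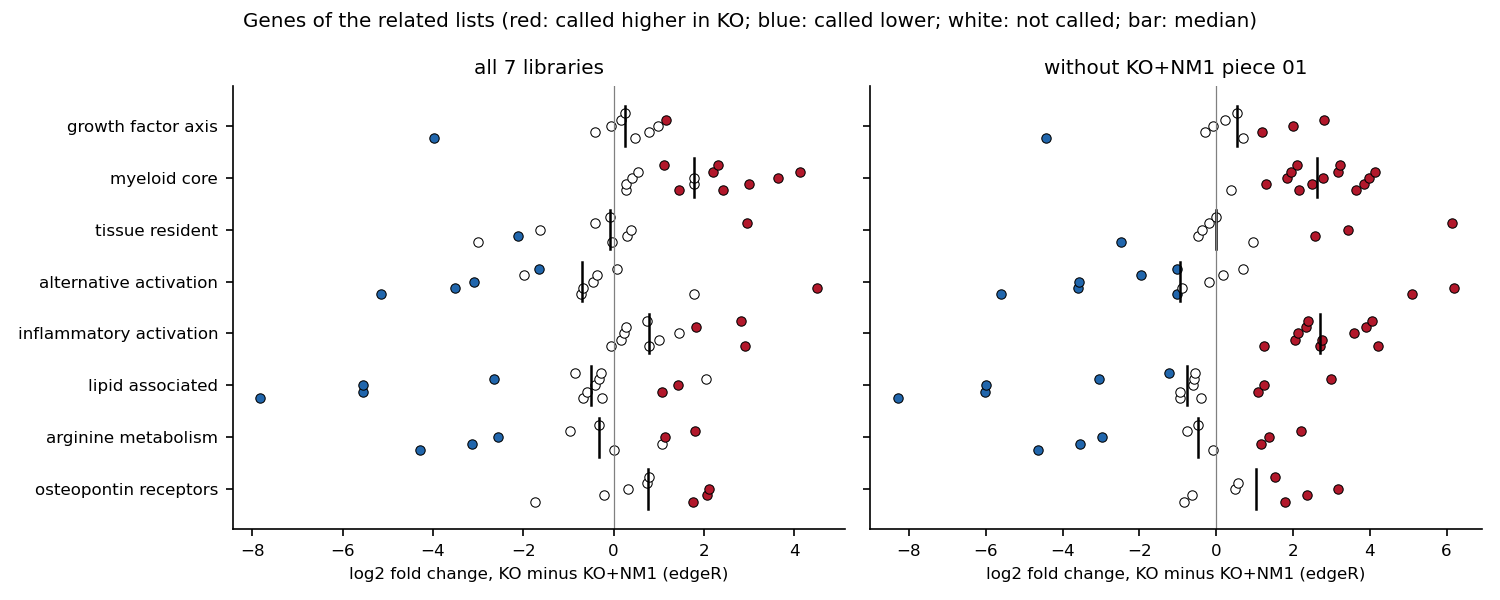
Log2 fold change, KO minus KO+NM1, of every tested gene of the related lists with all 7 libraries (left) and without KO+NM1 piece 01 (right), with the median of each list as a bar. The myeloid core list moves from a median of 1.78 to 2.64 and the inflammatory list from 0.79 to 2.7.

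Genes of other cells that could hold these transcripts were summed per piece. Monocyte genes summed to 201 to 335 CPM in KO and to 591 CPM in KO+NM1 piece 01 and 111 to 158 CPM in the others. Neutrophil genes came to 26.9 to 33.2 CPM in KO, 93.9 CPM in KO+NM1 piece 01 and 7.69 to 10.7 CPM in the others. Dendritic cell genes were at 51.1 to 60.1 CPM in KO, 304 CPM in KO+NM1 piece 01 and 45.8 to 49.7 CPM in the others. The neutrophil sum in KO was mostly Csf3r, with a mean of 28.2 CPM in KO and 6.68 CPM in KO+NM1, which other myeloid cells also express. Without KO+NM1 piece 01, Csf3r was called higher in KO (2.71), while S100a8, S100a9 and Cxcr2 had fitted changes of -0.87, -1.4 and -0.83 and were not called. Of the 6 monocyte genes, 4 were then called higher in KO and 1 lower. T cell genes reached 134 to 171 CPM in KO, 225 CPM in KO+NM1 piece 01 and 2.92 to 4.52 CPM in the others.

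For Spp1 and Gpnmb the osteoclast and osteoblast lists were also summed. Osteoclast genes reached 375, 103 and 146 CPM in KO pieces 01 to 03 and 137, 453, 405 and 389 CPM in KO+NM1 pieces 01 to 04, so KO piece 01 and KO+NM1 piece 01 each stood apart from their groups. Acp5, the most abundant of them, which macrophages also express, was at 85.8 ± 68.6 CPM (SD, n = 3) and 270 ± 112 CPM (SD, n = 4) and was not called (adjusted p = 0.0579 from edgeR). Osteoblast genes summed to 3.67 CPM or less in every piece, and Ibsp was at 0 in all 7. Mammary secretory genes summed to 0.833 to 6.12 CPM in KO, 2780 CPM in KO+NM1 piece 01 and 587 to 756 CPM in the others. A single gene of that list held most of the piece 01 sum, with 70837 counts there and as few as 1 in another KO+NM1 piece. Skeletal muscle genes summed to 2110 to 17200 CPM in KO and 7.51 to 25.1 CPM in KO+NM1. Mast cell genes summed to 19.2 to 42.9 CPM in KO and 25.2 to 189 CPM in KO+NM1, fibroblast genes to 7110 to 12900 CPM and 2790 to 12900 CPM, keratinocyte genes to 2.91 to 1060 CPM and 57.2 to 424 CPM, and proliferation genes to 1510 to 2050 CPM and 15.0 to 65.4 CPM. Their part in the values of the 10 genes was not tested.

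**Figure D5:**
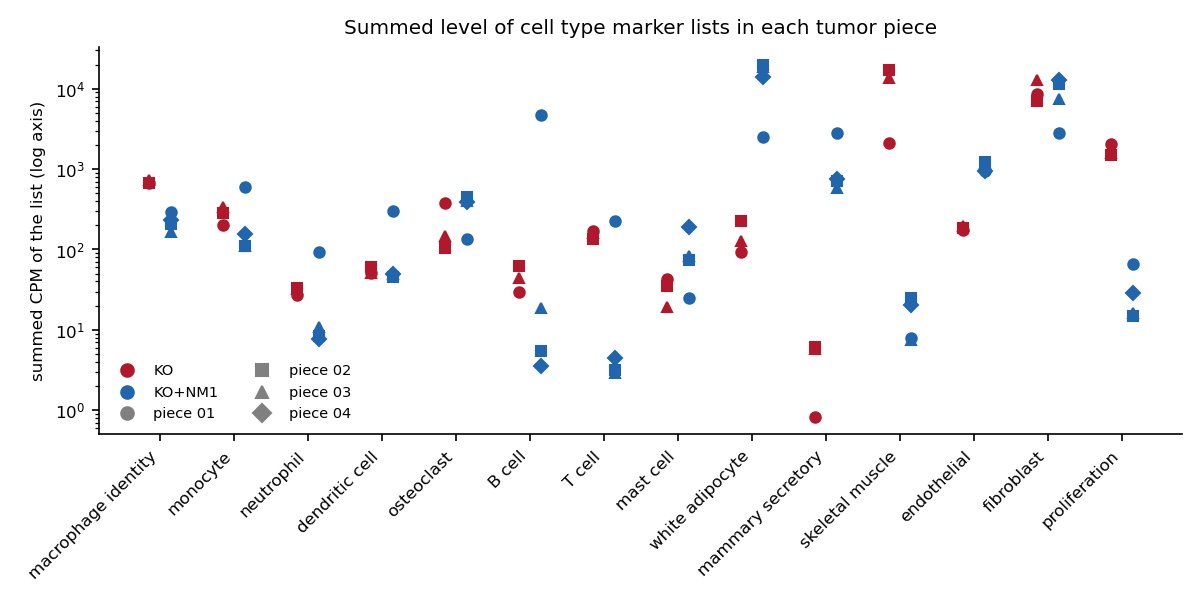
Summed CPM of each marker list in each piece (log axis), with KO in red and KO+NM1 in blue and a symbol for each piece number. KO+NM1 piece 01 (circle) is highest for B cell (4780 CPM), dendritic cell and neutrophil genes, and the 3 lineage genes sum to 670 to 730 CPM in KO and 166 to 291 CPM in KO+NM1.

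Last, the genes with the profile most like each of the 10 were found by the root mean square difference of centered log2 CPM over the 7 libraries, among 12283 genes with a mean of at least 5 CPM. The nearest to Csf1r was its own ligand Csf1, at 0.07, followed by Tpd52 at 0.08. Tbxas1, thromboxane synthase, was nearest to Adgre1 at 0.15. Isg15, an interferon-induced gene, was nearest to Trem2 at 0.38, and Ret, a receptor kinase, to Spp1 at 0.18. Gpnmb was closest to Ephb3 (0.21), Cd163 to Mir99ahg (0.15), Mrc1 to Tmem107 (0.14), Cd68 to Slf1 (0.15) and Nos2 to 2900076A07Rik (0.12). Arg1 had no close neighbor, with Phkg1 nearest at 0.67. These distances describe 7 libraries of 2 tumor conditions, and much of a profile can be the difference between the conditions. By fold range, Arg1 in KO and Cd163, Mrc1 and Gpnmb in KO+NM1 spread more within the group than the groups differed. For Mrc1 the range was 3.13-fold and the difference 2.07-fold, and for Gpnmb 3.36-fold and 3.16-fold.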

How the data were processed

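RNA from 7 tumor pieces was sequenced after preparation with the NEBNext Ultra II kit. The authors trimmed reads with Trimmomatic 0.36, aligned them to GRCm38 (mm10) with HISAT2 2.0.4, sorted them with SAMtools 0.1.19 and counted them per gene with HTSeq, according to the submitters' processing notes. The deposited values are raw read counts per Ensembl gene, without normalization, 24088309 to 28326568 in total per piece. The annotation release and the strand option of the counting are not given in the sources used here. Gene symbols, positions and exon lengths came from GENCODE M21, which matched 46091 of 46603 identifiers.

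Counts were normalized by TMM, filtered with filterByExpr (minimum count 10) and compared, KO minus KO+NM1, with the quasi-likelihood test of edgeR 4.0.16 in R 4.3.3, with Benjamini-Hochberg adjustment over 16887 genes. Calls needed an adjusted p under 0.05 and a 2-fold change, thresholds taken from the study's methods. The biological coefficient of variation was 46.7%. Single genes were also compared by a two-sided exact permutation test over 35 splits. Log2 CPM used a prior count of 2. The members and gene lists were chosen with earlier results of these data known. Named were the 10 members, the ligands of Csf1r, the adaptor of Trem2, receptors of osteopontin, the 2 largest rises and falls called in each list at a mean of at least 1 CPM, the 2 nearest profiles of each member, and the most abundant or undetected marker genes. A gene of the lists is not reported here by name.

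Alternatives were other normalizations and filters, DESeq2 1.42.0, limma 3.58.1 (voom), glmTreat, the piece number as a block and each library left out. Lengths of principal transcripts, and the list and background counts without KO+NM1 piece 01, were added after seeing the data. On simulated data with 199 of 16601 genes changed for this comparison, the test called 34% of genes changed 4-fold and 4.04% of those changed 2-fold. In the data far more genes were called (2882 higher and 3424 lower of 16887), so these rates need not hold there. A gene not called may still have changed. The chi-square per degree of freedom between libraries was 35.2 to 1050, so no library repeated another.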

Additional observations from a re-analysis of the deposited data

Results flagged for a closer look

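In 4 of the 33 genes tested this way, 1 KO+NM1 piece lay far from the other 3 on the log2 CPM scale, judged by its gap to the nearest piece as a share of the range (Dixon's test at 95%), where chance gives about 2. For Trem2 the share was 0.836, with piece 02 at 13.1 CPM above 4.65 to 5.51 CPM. For Itgb3 it was 0.892, with piece 01 at 94.5 CPM above 16.2 to 19.6 CPM. For Cd36 it was 0.833, with piece 01 at 518 CPM below 2200 to 2940 CPM. For Arg2 it was 0.935, with piece 01 at 2.92 CPM below 7.11 to 7.56 CPM.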

How the results depend on the processing

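Across 17 alternatives no member changed direction. Of 169 values 143 kept their side of the adjusted p threshold, 16 lost it and 10 gained it. Adgre1, Spp1 and Trem2 passed in all 17. Of 404 values of the 24 other named genes, 358 kept their side, 43 lost it, 3 gained it and 0 reversed. Tested against a 2-fold change with glmTreat, a stricter test by construction, 2 members were called higher and 1 lower, by either rule, as were 1707 and 2074 of all genes and 13 genes of the related lists higher. With voom, 4 members were past the adjusted p alone on the lower side (Cd163 and Nos2 joined) and 43 list genes were called higher. Leaving out each library gave 4 to 5 members called higher and 1 to 3 lower (4 to 5 and 1 to 4 by the adjusted p alone) and 16 to 42 list genes higher and 13 to 16 lower, the 42 without KO+NM1 piece 01. The 5 higher members without KO piece 01 held Arg1 (2.51, adjusted p = 0.0238 from edgeR) in place of Mrc1 (adjusted p = 0.103). Mrc1 lost the adjusted p threshold in 9 alternatives, with adjusted p from 0.000262 to 0.525 over all of them, and Gpnmb in 5, from 0.000273 to 0.136. Mrc1 passed it but fell under 2-fold, and so was not called, with at least 10 counts in every library (log2 fold change 0.99) and with DESeq2 (0.95). The same held with voom (0.94) and without KO+NM1 piece 01 (0.68). Nos2 passed the adjusted p in 7 alternatives and Cd163 in 2. Upper-quartile scaling shifted the median log2 fold change of all genes by -0.16 and library size alone by 0.17. Arg1 was not tested where 10 counts were asked of every library.

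The ratio differences against Adgre1 moved with the gene used below the line. Against Cd68 they were -0.27 for Csf1r, -0.4 for Mrc1, -2.59 for Cd163, -2.19 for Nos2, -4.06 for Spp1 and -3.13 for Gpnmb, and 0.88, a reversal, for Trem2. Against Csf1r they were -0.14 for Mrc1, -2.32 for Cd163, -0.22 for Arg1, -1.92 for Nos2, -3.79 for Spp1 and -2.86 for Gpnmb, with reversals for Cd68 (0.27) and Trem2 (1.14). By construction these differences hold the changes of Csf1r and Cd68 against Adgre1.

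In their deviations from the group means, same-numbered pieces of the groups correlated by 0.08, 0.10 and -0.02. Differently numbered pieces correlated by -0.12 to 0.11. Pieces with the same number were thus no more alike, and whether they shared handling is not known. With the piece number as a block, 5 members were called higher and 2 lower, the same genes as without it, and 2437 and 2493 of all genes, against 2882 and 3424 without it. Of the 14 general myeloid genes, 5 were called higher with the block and 8 without it. The adjusted p of Adgre1 was 0.00955 and that of Spp1 0.032 with the block.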
